A study of Mus musculus with 4 samples.

Results

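The p53 gene Trp53 and 9 genes that p53 activates (Cdkn1a, Mdm2, Bbc3, Bax, Ccng1, Sesn2, Phlda3, Trp53inp1 and Perp) were followed through 4 RNA-seq libraries of female mouse embryonic stem cells (mESCs). They were chosen by name, as established genes of the pathway, but with earlier results of these data known. They make up 10 of the 25965 genes listed in the expression table. The cells were F1 hybrids of FVB and CAST mice, so every library held 1 genome of each strain. One library (Day 0) came from undifferentiated cells kept in 2i medium, and its title names no hairpin. The other 3 came from day 6 of differentiation and carried Nons, a non-silencing control hairpin, or Smarca4.4 or Smarca4.6, both directed against Smarca4, an ATPase of the BAF nucleosome-remodelling complex. All 3 day 6 cultures received virus on day 2 and puromycin, to select the transduced cells, from day 3. Groups were read from the sample titles, because the genotype label gives a Smarcc knockdown for every day 6 library, Nons included, and a non-silencing control for Day 0.

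p53 is a transcription factor that is kept scarce in unstressed cells because the ubiquitin ligase Mdm2 marks it for destruction. DNA damage and other stresses stabilise the protein, and p53 then activates genes that halt the cell cycle, start apoptosis, slow growth signalling, or, like Mdm2 itself, bring p53 down again. Pluripotent stem cells make much p53 mRNA, and p53 is known in them for opposing self-renewal and promoting differentiation. Since the control is exerted mostly on the protein, the mRNA of Trp53 is not a measure of p53 activity.

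Depth ran from 18599402 reads at Day 0 to 47143739 reads for Smarca4.4, so that 3 reads, the least taken as present, were worth between 0.0636 and 0.161 CPM (reads scaled to the library total). Smarca4 itself had a log2 CPM of 7.93 at Day 0, 7.84 with Nons, 7.04 with Smarca4.4 and 7.44 with Smarca4.6, which put the knockdown libraries at 57.3% and 75.8% of Nons. The 10 pluripotency markers were all read at Day 0, with a summed level of 3714 CPM, and summed to 837 to 1111 CPM at day 6, most of it Pou5f1. Pou5f1 itself was higher in Nons than at Day 0, with a log2 CPM of 9.84 against 9.50, while the other markers of the list were lower in Nons. Of 4 blood and immune markers found, 2 at Day 0 and 3 in each day 6 library had more than 3 reads. Cd68 was the highest, with a log2 CPM of 2.52 at Day 0, 2.94 with Nons, 2.69 with Smarca4.4 and 2.16 with Smarca4.6, and Ptprc had 0 reads in every library. Each group was 1 library, so no difference has a replicate check and none was tested. The 95% intervals given in brackets are exact binomial intervals from the reads and cover counting error between 2 libraries only. In bulk RNA, a smaller share of cells making a transcript and less of it per cell cannot be told apart.

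The sequences below show matches to the p53 element near the starts of these genes, and the hairpins. A match describes the letters only and is not evidence of binding. A p53 half-site is a 10-base element of 3 purines, C, 2 bases that are each A or T, G and 3 pyrimidines, and p53 binds as a tetramer to a pair of them. RefSeq promoter windows on GRCm38.p6, reaching from 250 bases before a start to 50 after it, were matched for 8 of the 10 genes in 11 windows; Trp53inp1 and Perp were not matched. A half-site on either strand, which read the same because the element is its own reverse complement, lay in a window of 5 of the 8 genes (Trp53, Cdkn1a, Mdm2, Bax and Ccng1), against 8.52% of the 16047 listed genes with a window. A pair of half-sites at most 13 bases apart, with at most 1 mismatch in all, lay in 2 of the 8, Cdkn1a and Ccng1, against 0.623% of those genes. The stretches from 250 to 31 bases before the starts of Cdkn1a and Ccng1 are given on the strand of the gene, with the pair of half-sites in capitals:
Cdkn1a, chr17:29090729-29090948, plus strand: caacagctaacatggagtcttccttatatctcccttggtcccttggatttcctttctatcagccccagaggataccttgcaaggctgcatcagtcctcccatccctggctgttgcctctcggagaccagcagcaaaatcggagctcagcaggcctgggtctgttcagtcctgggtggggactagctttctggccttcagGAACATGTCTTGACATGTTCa
Ccng1, chr11:40755317-40755536, minus strand: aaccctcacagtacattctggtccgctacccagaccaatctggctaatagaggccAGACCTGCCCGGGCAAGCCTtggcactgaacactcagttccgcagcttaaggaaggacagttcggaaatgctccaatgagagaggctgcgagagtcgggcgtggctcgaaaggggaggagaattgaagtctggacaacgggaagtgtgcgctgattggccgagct

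The Cdkn1a pair lay from 51 to 32 bases before this start and 2841 bases before the second RefSeq start of the gene, and the Ccng1 pair from 195 to 176 bases before its start. Each pair had no gap and 1 mismatch. The upstream half-site of the Cdkn1a pair also formed a pair without mismatch with another half-site 12 bases before it. Single half-sites of the other 3 genes are shown with 10 bases either side and the half-site in capitals:
Trp53, chr11:69580274-69580303, plus strand: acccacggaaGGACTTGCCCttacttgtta
Mdm2, chr10:117710925-117710954, minus strand: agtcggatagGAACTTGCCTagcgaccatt
Bax, chr7:45467080-45467109, minus strand: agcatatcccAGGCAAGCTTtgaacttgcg

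No exact half-site lay in the windows of Bbc3, Sesn2 or Phlda3, which says only that these letters are not in those 300 bases. The guide strands of the hairpins, taken from the study's list of designed hairpins, are shown because the day 6 comparisons rest on them, with the seed (bases 2 to 8) in capitals:
Nons: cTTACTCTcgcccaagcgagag
Smarca4.4: tTTATTACtgtctgactccagt
Smarca4.6: tTGCATAAtagtgttcatcagt

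The Smarca4.4 guide paired in full with chr9:21703327-21703348 (GRCm38, plus strand), in the 3′ untranslated part of the last of 34 exons of Smarca4. The Smarca4.6 guide paired with chr9:21670504-21670525, in the coding part of exon 22. Neither complement was found in transcripts of any other annotated gene, and that of Nons was found in none. The 3 seeds differ from one another.

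All 10 genes were far above 3 reads in all 4 libraries and passed the filter on low values. Per kilobase of exon, where genes can be set against one another, Ccng1 was the most abundant in Nons, with 118 RPKM (CPM for each kilobase of exon), followed by Bax at 82.8 and Phlda3 at 78.1. Mdm2 at 38.0 and Bbc3 at 37.9 RPKM were next to equal, and Sesn2 at 18.9 and Cdkn1a at 25.7 RPKM were the least abundant. At Day 0, Perp at 5.81 and Bbc3 at 6.78 RPKM were last, and Ccng1 at 88.1 and Bax at 72.3 RPKM were first. With Smarca4.6, Bax at 93.7 and Ccng1 at 92.3 RPKM stood side by side and Cdkn1a was last at 16.1 RPKM. The levels lay in the same overall order in Smarca4.4 as in Nons, except that Cdkn1a at 21.4 RPKM was below Sesn2 at 24.8 RPKM.

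**Figure D1:**
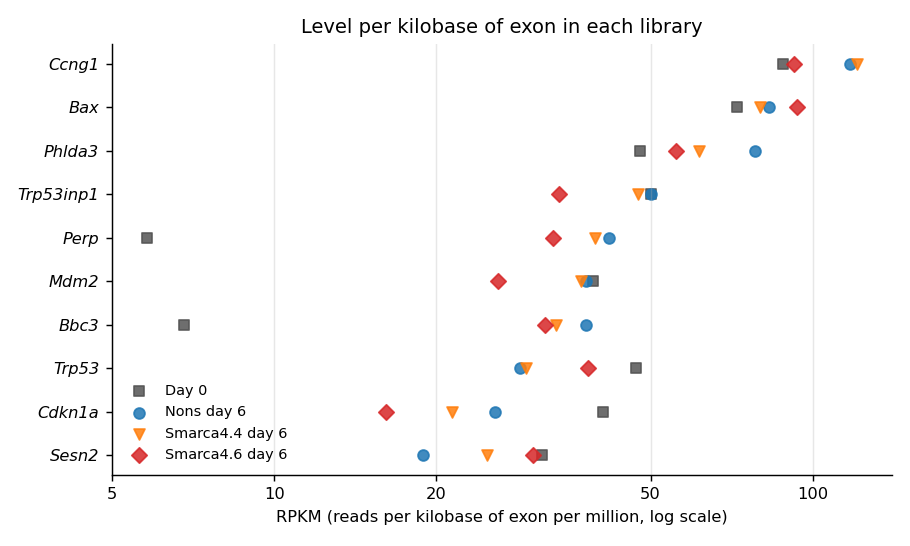
Level of Trp53 and 9 p53 target genes per kilobase of exon in each of the 4 libraries, in RPKM on a log axis, with 1 point for each library. Bbc3 and Perp at Day 0 (6.78 and 5.81 RPKM) sat far to the left of all other points.

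Trp53, which encodes p53, lies on chromosome 11 (69580359 to 69591873, plus strand, mm10). Its log2 CPM was 7.57 at Day 0, 6.86 with Nons, 6.89 with Smarca4.4 and 7.27 with Smarca4.6. It was highest in undifferentiated cells, Nons and Smarca4.4 were alike, and Smarca4.6 lay between them and Day 0. Wrap53, the neighbour on the other strand, which has a log2 CPM of only 3.70, 2.69, 2.96 and 3.38 in the same order, showed the same order of libraries. The strand setting of the counting was not stated, but the 2 genes did not overlap in the table's coordinates, and the pseudogene Trp53-ps had 0 reads in every library.

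Mdm2 (chromosome 10, 117688888 to 117710758, minus strand), the ubiquitin ligase that p53 induces and that removes p53, had a log2 CPM of 7.63 at Day 0, 7.59 with Nons, 7.56 with Smarca4.4 and 7.05 with Smarca4.6. The first 3 libraries were close together and Smarca4.6 stood below them. Ccng1 (chromosome 11, 40748552 to 40755311, minus strand) encodes cyclin G1, a p53-induced protein that acts with a phosphatase on Mdm2. It had a log2 CPM of 8.27 at Day 0, 8.69 with Nons, 8.73 with Smarca4.4 and 8.34 with Smarca4.6. Here Nons and Smarca4.4 were the high pair and Smarca4.6 was close to Day 0.

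Cdkn1a (chromosome 17, 29090979 to 29100722, plus strand) encodes p21, the inhibitor of cyclin-dependent kinases through which p53 arrests the cell cycle. Its log2 CPM was 7.18 at Day 0, 6.51 with Nons, 6.25 with Smarca4.4 and 5.84 with Smarca4.6. The 4 libraries were all apart, over a range of 1.34, with Day 0 highest and Smarca4.6 lowest.

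Of the 4 genes tied to cell death, Bbc3 (chromosome 7, 16309616 to 16318205, plus strand) encodes PUMA, a BH3-only protein that frees Bax and Bak to act. It had a log2 CPM of 3.85 at Day 0, 6.33 with Nons, 6.15 with Smarca4.4 and 6.08 with Smarca4.6. Bax (chromosome 7, 45461695 to 45466898, minus strand), which forms the pores in the mitochondrial membrane, had a log2 CPM of 6.83, 7.03, 6.98 and 7.21 in the same order. Bbc3 was thus low in undifferentiated cells and high at day 6 whichever hairpin was present, while Bax varied least of the 10 genes over the 4 libraries, by 0.37. Perp (chromosome 10, 18845071 to 18857073, plus strand), a membrane protein of desmosomes that takes part in p53-dependent apoptosis, had a log2 CPM of 3.50 at Day 0, 6.35 with Nons, 6.26 with Smarca4.4 and 6.00 with Smarca4.6. Trp53inp1 (chromosome 4, 11156431 to 11174379, plus strand), a stress protein that promotes p53 phosphorylation and autophagy, had a log2 CPM of 8.34 both at Day 0 and with Nons, 8.26 with Smarca4.4 and 7.77 with Smarca4.6. Perp followed the pattern of Bbc3, and Trp53inp1 that of Mdm2.

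Sesn2 and Phlda3 restrain growth signalling. Sesn2 (chromosome 4, 132492032 to 132510501, minus strand) encodes sestrin 2, an inhibitor of mTORC1 signalling that is also induced by the stress factor ATF4. It had a log2 CPM of 6.77 at Day 0, 6.03 with Nons, 6.43 with Smarca4.4 and 6.72 with Smarca4.6. Phlda3 (chromosome 1, 135766119 to 135769136, plus strand), which competes with Akt for membrane lipids, had a log2 CPM of 6.22, 6.93, 6.59 and 6.44 in the same order. The patterns were mirror images: Nons was the lowest library for Sesn2 and the highest for Phlda3, and both knockdown libraries lay between Nons and Day 0.

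**Figure D2:**
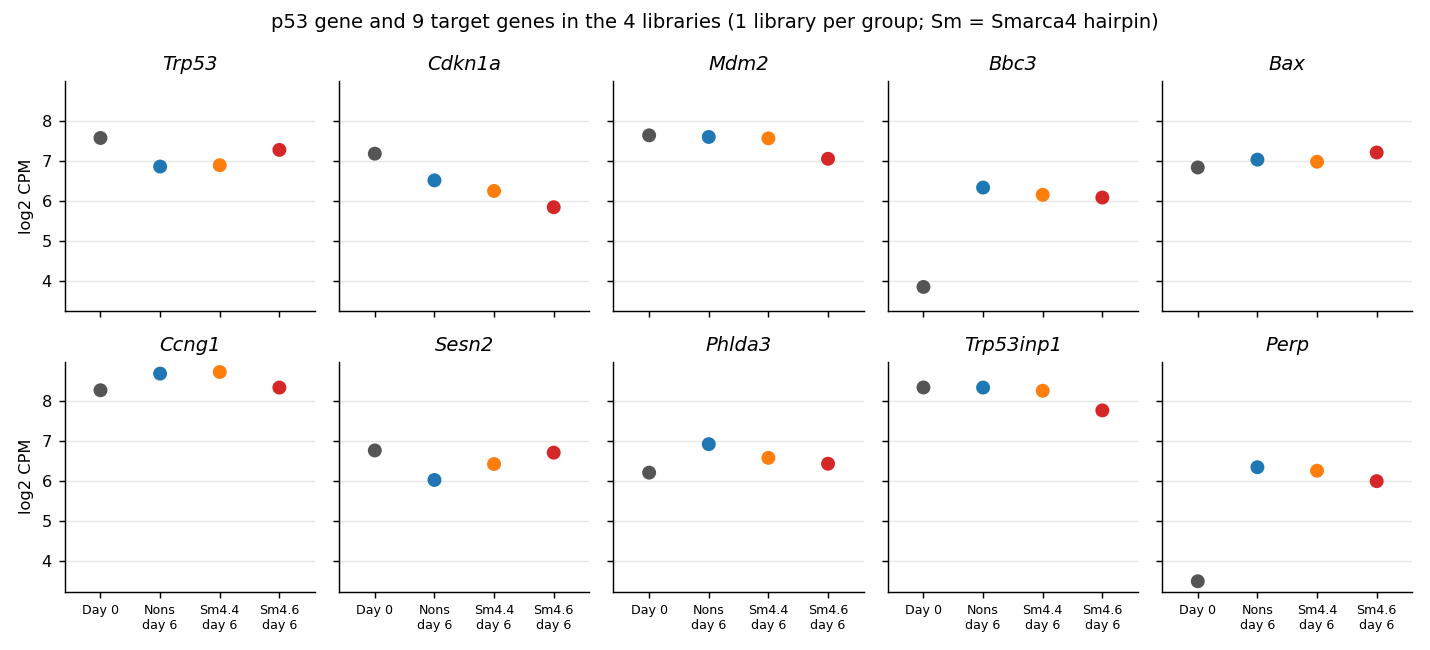
Level of Trp53 and 9 p53 target genes in log2 CPM (vertical axis) in each library (horizontal axis), with 1 point for each library. Bbc3 and Perp were near 3.85 and 3.50 at Day 0 and above 6 or at 6.00 in the 3 day 6 libraries, and Mdm2 and Trp53inp1 stood apart only in Smarca4.6.

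The first comparison, Nons at day 6 against Day 0, describes the pathway in transduced, selected and differentiated control cells. Bbc3 and Perp were much higher at day 6 and Phlda3, Ccng1 and Bax were higher by less than 2-fold. Trp53, Sesn2 and the cell cycle inhibitor gene Cdkn1a were lower, while Mdm2 and Trp53inp1 were within counting error of Day 0. Perp differed by 2.85 (2.65 to 3.05) in log2 CPM, which is 7.20-fold, and Bbc3 by 2.48 (2.30 to 2.67), which is 5.58-fold. These were the 2 genes of 10 at least 2-fold higher, where 19.6% of the 13264 genes with a mean log2 CPM of at least 0 were, and 0 of 10 were at least 2-fold lower, where 12.3% were. The share of the 10 past 2-fold was therefore near that of all genes in the upward direction.

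Among the other genes, Phlda3 was higher by 0.71 (0.63 to 0.80), Ccng1 by 0.42 (0.37 to 0.46) and Bax by 0.20 (0.12 to 0.27). Sesn2 differed by -0.74 (-0.82 to -0.65), Trp53 by -0.71 (-0.78 to -0.65) and Cdkn1a by -0.67 (-0.74 to -0.60), which left each at 60.03%, 61.0% and 63.0% of its Day 0 level. For Mdm2 the difference was -0.041 (-0.097 to 0.015) and for Trp53inp1 -0.0024 (-0.046 to 0.041), both intervals reaching across 0. The median of the 10 differences was 0.097 and that of all genes 0.031. Time in differentiation, transduction and puromycin selection all separate these libraries and cannot be told apart.

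**Figure D3:**
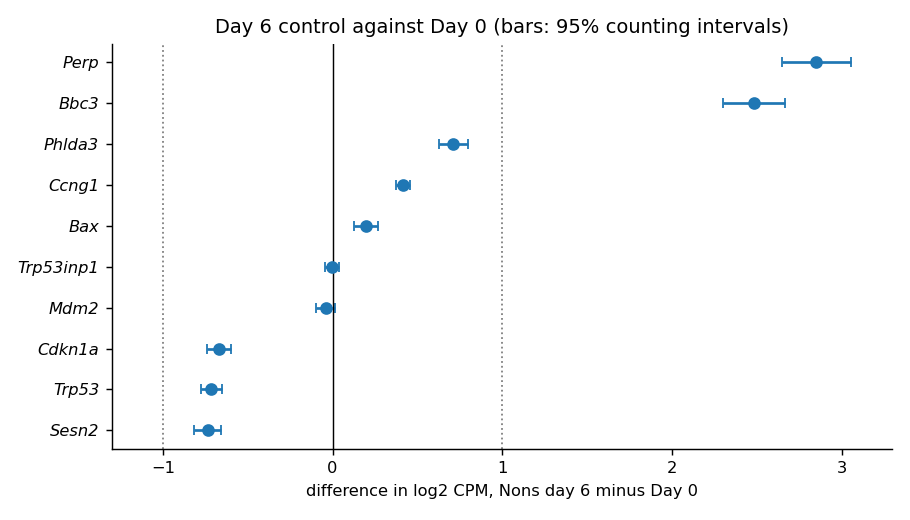
Difference in log2 CPM between Nons day 6 and Day 0 (horizontal axis) for each gene (vertical axis), with 95% counting intervals as bars and dotted lines at 2-fold. Perp at 2.85 and Bbc3 at 2.48 lay to the right of the dotted line at 2-fold higher, and the other 8 genes lay between the lines.

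The genes around p53 gave the setting of that comparison. Of 33 other p53 targets that passed the same filter, of 34 listed, 7 (21.2%) were at least 2-fold higher and 4 (12.1%) at least 2-fold lower, with a median of 0.072. These shares were near the 19.6% and 12.3% of all genes. Sfn, the cell cycle inhibitor 14-3-3 sigma, which is abundant in epithelia, was the highest at 5.68 (5.42 to 5.95), and Gdf15, a secreted stress factor, the lowest at -2.89 (-3.26 to -2.53). Of 13 BCL2 family members, 7 were at least 2-fold higher and 0 lower, with a median of 1.34. Bik, a BH3-only protein, was higher by 3.07 (2.33 to 3.93), and Bcl2, a survival protein with 0 reads at Day 0 and 1135 in Nons, was at least 154-fold higher, taking 3 reads at Day 0 as the limit. Bbc3 thus stood among other members of its family with higher levels at day 6. Of 16 p53 regulators, 0 were at least 2-fold higher and 4 lower, among them Trp73, a p53 relative, at -2.54 (-2.77 to -2.32) and Cdkn2a, whose product Arf inhibits Mdm2, at -1.38 (-1.56 to -1.20).

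Cell type markers moved with this comparison. The 6 trophoblast markers summed to 99.3 CPM at Day 0 and 1573 CPM in Nons, nearly all of it Krt8 and Krt18; 4 of the 6 were higher, while Cdx2 at -2.68 and Tfap2c at -2.40 were lower. The 9 mesenchymal and smooth muscle markers summed to 123 and 1180 CPM, most of the latter Tagln, with Acta2 and Col3a1 at 0 reads at Day 0. Of these 7 were higher, while Vim at -0.28 and Pdgfrb at -1.49 were lower. The 6 neural markers summed to 178 and 476 CPM, most of the latter Nes. Nes at 3.12, Neurod1 at 3.67 and Mtap2 (Map2) at 1.69 were higher, while Pax6 at -0.85, Sox1 at -2.04 and Tubb3 at -0.94 were lower. The 6 endoderm markers stayed between 4.59 and 7.04 CPM in the 4 libraries, with Ttr at 0 reads in all. The part of other cell types in the higher Bbc3 and Perp was not tested.

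The knockdown libraries were each compared with Nons at day 6 to see how the pathway differed with Smarca4 depletion. These comparisons share the Nons library, so that an unusual value in it would enter both. With Smarca4.4 the 10 genes were close to Nons, with 1 higher and 1 lower by at least 0.32 in log2 CPM, a ratio of 5 to 4 that is used for all day 6 comparisons. With Smarca4.6, 6 of the 10 were lower by at least 0.32, namely Cdkn1a, Trp53inp1, Mdm2, Phlda3, Ccng1 and Perp, while Sesn2 and Trp53 itself were higher. No gene of the 10 differed by 2-fold in either comparison, where 1.19% of all genes did so for Smarca4.4 and 1.82% of them for Smarca4.6.

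With Smarca4.4, Sesn2 was higher by 0.40 (0.33 to 0.47) and Phlda3 differed by -0.34 (-0.40 to -0.29), which is 78.8% of its Nons level. Cdkn1a followed at -0.26 (-0.33 to -0.20), or 83.3% of Nons, and Bbc3 at -0.18 (-0.25 to -0.11). The other 6 genes lay between -0.087 for Perp and 0.040 for Ccng1. Among all genes 12.9% were at least 0.32 higher and 9.51% at least 0.32 lower, so that 1 of 10 in each direction was near the background. The median of the 10 was -0.066 and that of all genes 0.038.

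With Smarca4.6, Cdkn1a differed by -0.67 (-0.75 to -0.59), or 62.8% of its Nons level, and a lower difference was seen for 2.75% of all genes. Trp53inp1 differed by -0.57 (-0.61 to -0.53), Mdm2 by -0.54 (-0.60 to -0.49) and Phlda3 by -0.49 (-0.55 to -0.43), which left them at 67.4%, 68.6% and 71.3% of Nons. Ccng1 at -0.35 (-0.38 to -0.32) and Perp at -0.35 (-0.42 to -0.27) were past 0.32 by a small margin, and Bbc3 at -0.25 (-0.32 to -0.17) was not. In the other direction, Sesn2 was higher by 0.68 (0.61 to 0.75), or 1.60-fold, Trp53 by 0.42 (0.36 to 0.47), or 1.33-fold, and Bax by 0.18 (0.12 to 0.23). Against these 6 lower and 2 higher of 10, 11.8% of all genes were at least 0.32 lower and 18.8% higher. The median of the 10 was -0.35 and that of all genes 0.064.

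**Figure D4:**
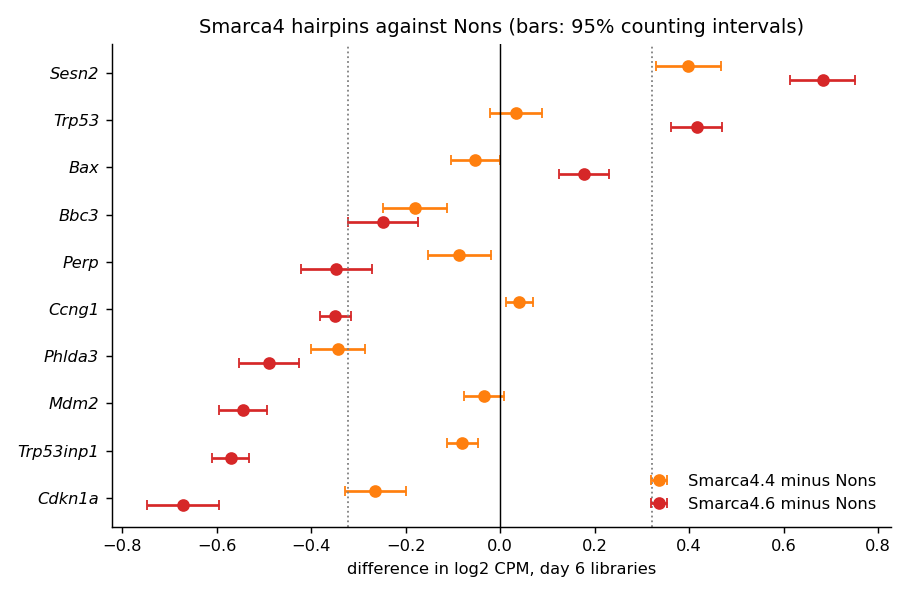
Difference in log2 CPM from Nons at day 6 (horizontal axis) for each gene (vertical axis) with Smarca4.4 (orange) and Smarca4.6 (red), with 95% counting intervals as bars and dotted lines at 0.32 either way. In red, 6 genes lay beyond the left dotted line, from Cdkn1a at -0.67 to Perp at -0.35, and in orange 1 gene did, Phlda3 at -0.34.

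The hairpins were also compared directly, since their Smarca4 levels differed: Smarca4 was at 75.6% in Smarca4.4 of its level in Smarca4.6. Mdm2 was higher in Smarca4.4 than in Smarca4.6 by 0.51 (0.46 to 0.56), Trp53inp1 by 0.49 (0.45 to 0.53), Cdkn1a by 0.41 (0.33 to 0.49) and Ccng1 by 0.39 (0.36 to 0.42), and Trp53 differed by -0.38 (-0.44 to -0.33). These 4 higher and 1 lower of 10 by at least 0.32 compare with 8.46% and 9.38% of all genes, and 0 of 10 reached 2-fold, where 0.656% of all genes did. Perp at 0.26 (0.19 to 0.34), Phlda3 at 0.15 (0.080 to 0.21), Sesn2 at -0.28 (-0.35 to -0.22) and Bax at -0.23 (-0.28 to -0.18) differed by less, and the interval for Bbc3, at 0.068 (-0.0076 to 0.14), reached across 0. Smarca4.6, the library with more Smarca4, had 6 of the 10 genes at least 0.32 below Nons, against 11.8% of all genes. Smarca4.4 had 1 of the 10, against 9.51%. By any amount, 7 of the 10 were below Nons in each. Of the 13264 genes kept, 5452 were below Nons with Smarca4.6 and 5774 with Smarca4.4. With 1 library for each hairpin, a difference between hairpins and one between any 2 cultures cannot be told apart.

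The other p53 targets were read in the same way. With Smarca4.6, 6 of 33 (18.2%) were at least 0.32 lower (Btg2, Eda2r, Fas, Gdf15, Polk and Xpc) and 2 (6.06%) higher, with a median of -0.089, where 11.8% and 18.8% of all genes were. Btg2, an antiproliferative gene, differed by -0.77 (-0.83 to -0.71) with Smarca4.6 and by -0.39 (-0.44 to -0.34) with Smarca4.4, the same order as Cdkn1a. Gdf15 rested on few reads, 87 with Nons, 39 with Smarca4.4 and 37 with Smarca4.6. With Smarca4.4, 3 of 33 were higher and 5 lower, with a median of -0.010, where 12.9% and 9.51% of all genes were. Plk3, a stress kinase, was higher by 0.67 (0.54 to 0.79) with Smarca4.4 and differed by 0.038 (-0.11 to 0.19) with Smarca4.6. In the direct comparison of the hairpins, 7 of 33 were higher and 2 lower in Smarca4.4, with a median of 0.10. Of all genes, 8.46% were higher and 9.38% lower.

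Over all genes, 12.9% were at least 0.32 higher and 9.51% lower with Smarca4.4, and 18.8% and 11.8% with Smarca4.6. Of 16 p53 regulators, 1 was higher and 0 lower with Smarca4.4, and 2 were higher and 1 lower with Smarca4.6. The lower one was Mdm4, the partner of Mdm2 in restraining p53, at -0.34 (-0.41 to -0.27), while Atm, the kinase that signals DNA breaks, was higher by 0.39 (0.31 to 0.47). Among 10 genes related in sequence to Trp53 or its targets, 2 were higher and 4 lower with Smarca4.4, with a median of -0.11. With Smarca4.6, 2 were higher and 5 lower, with a median of -0.31, close to the 2 higher, 6 lower and median of -0.35 of the p53 pathway genes. Ccng2, the relative of Ccng1, differed by -0.40 (-0.47 to -0.32) with Smarca4.4 and -0.67 (-0.75 to -0.58) with Smarca4.6. Cdkn1c, the relative of Cdkn1a that encodes p57, was on the contrary higher by 0.89 (0.77 to 1.02) and 0.83 (0.69 to 0.97). In the BCL2 family 1 of 13 was higher and 2 lower with Smarca4.4, and 1 higher and 1 lower with Smarca4.6, the survival gene Bcl2l1 being lower in both at -0.40 (-0.47 to -0.34) and -0.49 (-0.56 to -0.41).

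Sesn2, the target that stood above Nons in both knockdown libraries, is shared with the ATF4 pathway of amino acid and protein stress. Of 12 ATF4 stress genes, 5 were at least 0.32 higher with Smarca4.6 and 2 lower, with a median of 0.26. Of all genes, 18.8% were higher and 11.8% lower by that much. Chac1, which degrades glutathione, was higher by 1.60 (1.48 to 1.71), Trib3, a pseudokinase, by 0.78 (0.69 to 0.87) and Atf4 itself by 0.56 (0.53 to 0.60). The lower ones were Nupr1 at -0.71 (-1.14 to -0.30) and Cebpb at -0.57 (-0.74 to -0.39). With Smarca4.4, 1 was higher, Chac1 by 0.57 (0.45 to 0.70), and 2 were lower, with a median of 0.023. These 2 were Cebpb at -0.67 (-0.84 to -0.50) and Nupr1 at -0.39 (-0.76 to -0.034). Of all genes, 12.9% were higher and 9.51% lower with that hairpin. In the direct comparison 0 were higher and 4 lower in Smarca4.4, where 8.46% and 9.38% of all genes were. The part of ATF4 in the Sesn2 values was not tested. Genes of the G2 and M phases, which p53 represses through p21, were close to Nons. With Smarca4.4, 0 of 15 were past 0.32, where 12.9% of all genes were higher and 9.51% lower. With Smarca4.6, 0 were higher and 1 lower, Ccnb2 at -0.33 (-0.39 to -0.28), where 18.8% and 11.8% of all genes were.

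**Figure D5:**
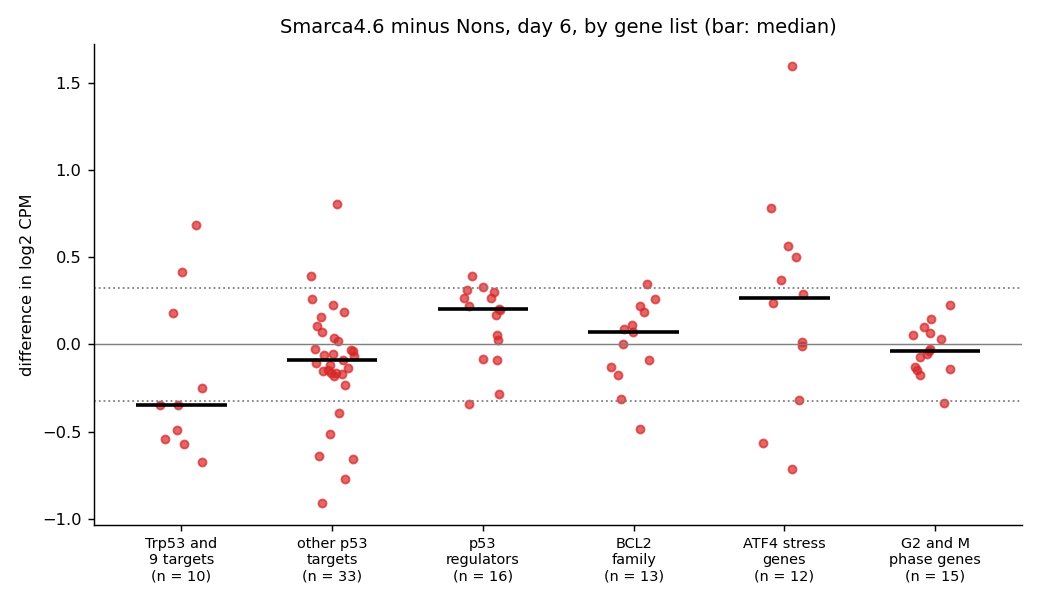
Difference in log2 CPM between Smarca4.6 and Nons at day 6 (vertical axis) for each gene of 6 lists (horizontal axis), with 1 point for each gene, a bar at the median and dotted lines at 0.32 either way. Of the lists drawn, Trp53 and its 9 targets had the lowest median, -0.35 (that of their relatives, not drawn, was -0.31), and the ATF4 stress genes the highest, 0.26, with Chac1 at 1.60.

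Marker sums differed between the 3 day 6 libraries as well. Pluripotency markers summed to 1069 CPM with Nons, 837 with Smarca4.4 and 1111 with Smarca4.6, mesenchymal markers to 1180, 940 and 844, trophoblast markers to 1573, 1714 and 1352, and neural markers to 476, 468 and 510 CPM. These sums followed the most abundant genes, and members went both ways. With Smarca4.6, Pou5f1 was above Nons by 0.10, while Nanog at -0.39 and Sox2 at -0.38 were lower. Krt18 at -0.42 and Krt8 at -0.12 were also lower there, while Tfap2c at 0.47 and Cdx2 at 1.46, on few reads, were higher. With Smarca4.4, Nes at -0.12, Mtap2 at -0.20 and Neurod1 at -0.13 were lower. Pax6 at 0.62, Tubb3 at 0.43 and Sox1 at 3.92, on few reads in Nons, were higher. All 9 mesenchymal and all 6 trophoblast markers had more than 3 reads in each of these libraries. The mesenchymal sum was lowest in Smarca4.6, mostly through Tagln, which differed from Nons by -0.66. In that library 6 of the 9 mesenchymal markers were below Nons, and 3 were above it, among them Vim by 0.74 and Col3a1, which had few reads, by 1.33. The part of these markers in the values of the p53 pathway was not tested.

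The genes whose pattern over the 4 libraries was nearest to that of a pathway member were sought among 9619 genes with a mean log2 CPM of at least 3, as the Euclidean distance between values centred on each gene's mean. The nearest gene to Mdm2 was Trp53inp1, another p53 target of the list, at a distance of 0.035, followed by Dnalc1 at 0.076 and Bre at 0.099. Nearest to Cdkn1a were Ndrg1 at 0.058, Pvr at 0.059 and Gm17035 at 0.081. Nearest to Trp53 were Tufm at 0.035, Vars at 0.056 and Clpp at 0.060. Ndrg1, for example, had a log2 CPM of 7.57 at Day 0, 6.92 with Nons, 6.63 with Smarca4.4 and 6.30 with Smarca4.6. Over only 4 libraries such nearness is a description of these values.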

How the data were processed

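RNA-seq was performed on 4 libraries, 1 for each group, all with the replicate number 3. Per the methods and labels, the authors trimmed paired-end TruSeq reads with trim_galore, aligned them with HISAT2 (tophat is also named) to mm10 with the FVB and CAST variants masked, and quantified exons in SeqMonk. The strand setting is not given in the sources used here. The deposited values are log2 CPM over 25965 genes with both alleles combined.

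Differences were taken between the deposited log2 values. In every library the back-transformed values stepped by whole reads (99.99% within 0.1 of a read), 0 reads standing as 0.9, which gave reads and totals for the intervals (exact binomial, 95%). Genes with a mean log2 CPM of at least 0 were kept. Differences of at least 2-fold (against Day 0) or 0.32 in log2 (day 6, a ratio of 5 to 4) were counted. No count model was run, since no group had a second library. RPKM values used GENCODE M21 exon lengths, which may differ from the exons counted; 273 bases of Cdkn1a exons and 192 of Bax exons overlap other annotated genes. Aliases in the table were 9630033F20Rik for Tigar, Lrdd for Pidd1 and Rfwd2 for Cop1.

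The members and gene lists were chosen with earlier results of these data known. All members were named. Of each other list, the rule took the 2 highest and 2 lowest genes between Nons and Day 0 and, among genes with a mean of at least 3, the 2 furthest from Nons with each hairpin. Other genes, those of short counts, neighbours and markers at 0 reads, were named after their values were seen, and some that the rule took are not printed. The search for pairs of half-sites in the promoters was also added after seeing the data. Alternatives were median-of-ratios size factors, centring on the autosomal median, a 1 CPM pseudocount, a minimum mean of 3, and no filter. Scripts were tested on simulated reads. Tools were pandas 2.3.3, scipy 1.17.1, numpy 2.4.6 and matplotlib 3.10.9 on Python 3.11.15.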

Additional observations from a re-analysis of the deposited data

Results flagged for a closer look

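Bax and Ccng1 lay on opposite sides of Nons with the 2 hairpins, with counting intervals clear of 0 in the deposited values. Bax differed from Nons by only -0.053 (-0.10 to -0.00085) with Smarca4.4, an interval barely clear of 0. With Smarca4.6 it was above Nons by 0.18 (0.12 to 0.23), so that Smarca4.4 differed from Smarca4.6 by -0.23 in log2 CPM. Ccng1 was above Nons with Smarca4.4 and below it with Smarca4.6, a difference of 0.39. Its value with Smarca4.4 was only 0.040, and went to 0.018 with centring on the autosomal median and to 0.0013 with size factors. Shifted by the same amount, its interval reached across 0 under both settings. With 1 library for each hairpin, neither difference was tested.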

How the results depend on the processing

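No paired analysis was possible because with a single library in every group no comparison has 2 pairs, and for the same reason no library could be left out. With median-of-ratios size factors, centring on the autosomal median or a 1 CPM pseudocount, the counts of the 10 genes past the fold were the same in every comparison. Their medians kept their sign but moved. Centring took Nons against Day 0 from 0.097 to 0.049 and the difference between hairpins from 0.20 to 0.25. With size factors, Smarca4.4 against Nons went from -0.066 to -0.11 and Smarca4.6 against Nons from -0.35 to -0.42. Of 120 single-gene differences under these settings, 20 left their counting interval and 0 that were past the fold changed sign; Trp53 with Smarca4.4 against Nons, which was not past it, went to -0.0063 with size factors. The background shares depended on the filter. With a minimum mean of 3, 2-fold differences were at 0.187% (Smarca4.4 against Nons), 0.395% (Smarca4.6 against Nons) and 0.0728% (between hairpins), values at least 0.32 higher at 8.61% for Smarca4.4 against Nons, and values at least 0.32 higher and lower at 4.80% and 5.61% between hairpins. With no filter, 2-fold lower values at day 6 were at 41.8%, 2-fold differences at 8.72%, 8.82% and 7.71%, values at least 0.32 higher for Smarca4.6 at 46.4%, and values at least 0.32 lower between hairpins at 39.5%; genes with few or 0 reads then count. With the pseudocount, the 2-fold shares were 0.332%, 0.573% and 0.136%. Among the other lists, 265 of 288 recomputed values held and 23 counts moved. Centring gave 1 higher and 2 lower p53 regulators and 0 higher and 2 lower BCL2 genes with Smarca4.6, and between hairpins 1 lower other target, 0 lower regulators, 1 lower BCL2 gene and 1 higher ATF4 gene. The minimum mean of 3 gave 3 lower other targets, 0 higher and 1 lower BCL2 genes, 1 higher relative and 1 lower ATF4 gene with Smarca4.4, 1 higher relative and 1 lower ATF4 gene with Smarca4.6, 1 lower other target between hairpins, and 0 lower relatives and 1 lower ATF4 gene at day 6. No filter gave 2 lower relatives at day 6, and 2 lower regulators and 1 lower relative between hairpins. The pseudocount gave 0 higher BCL2 genes and 1 lower ATF4 gene with Smarca4.4. Depth limits Fas and Gdf15, which had under 100 reads in each day 6 library.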
